A study of Homo sapiens with 8 samples.

Results

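Nascent transcription of 9 genes of glucose entry and early glycolysis was followed across 4 groups of IMR90 cells, out of 27945 genes counted. The genes were taken by symbol: the transporters SLC2A1, SLC2A3 and SLC2A12, the hexokinases HK1, HK2 and HKDC1, and the PFKFB enzymes PFKFB2, PFKFB3 and PFKFB4. HK2 had the largest change in senescence of the 8 that could be tested: its transcription was 10.98-fold higher in senescent shControl cells than in control cells and lower again after knockdown of METTL3 or METTL14. SLC2A3 was higher in senescence and higher still in both knockdowns, SLC2A1 was lower in senescence, and HK1 was lower with shMETTL3 than with shMETTL14. These calls of SLC2A3 and SLC2A1 were each lost under at least 1 alternative analysis. Those of HK2 and HK1 named here held under all 12.

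IMR90 is a line of primary human lung fibroblasts. The cells carried ER:RAS, an oncogenic RAS that 4-hydroxytamoxifen (4-OHT) switches on, introduced by retrovirus and selected, and the methods describe culture in 2% oxygen. The 4 groups had 2 libraries each. One was control cells, and the others were senescent cells expressing an shRNA named shControl, shMETTL3 or shMETTL14, METTL3 and METTL14 being the 2 core subunits of the RNA methyltransferase that writes N6-methyladenosine. The general methods describe 4-OHT at 100 nM and harvest on day 6, which the labels do not state for these libraries, nor whether control cells received solvent. No shRNA is named for the control cells, and the effects of infection and of senescence cannot be told apart in the first comparison. The fastGRO-seq assay lets engaged polymerases run on in isolated nuclei with 4-thio-UTP and sequences the RNA that takes up the label, so that a count reports ongoing transcription over the whole gene body, introns included. The paper describes the libraries of a group as independent experiments, which the labels do not state, and p-values measure the spread between them.

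Glucose crosses the plasma membrane through facilitative transporters of the SLC2A family. Hexokinases phosphorylate it, which keeps it in the cell, and the product feeds glycolysis, glycogen and the pentose phosphate pathway. PFKFB enzymes are bifunctional and make or remove a fructose bisphosphate that activates phosphofructokinase, the main regulated step of glycolysis further down. HK1 is the hexokinase of most tissues, whereas HK2 is known as an inducible form of muscle, fat and many tumours.

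Total counts per library ran from 14897360 to 20306299, of which 21 rows of ribosomal RNA genes took 86.2% to 92.5%, so that 1513930 to 2048475 counts per library lay elsewhere and 824 to 1239 on the 9 genes. Counts were scaled by TMM to the mean library and are given as normalised counts, or per kb of gene body where genes are set side by side. The length is that of the counted row. HK1, HK2 and PFKFB3 have alternative annotated starts, and which start was in use was not determined. Levels per kb, and the order and shares of genes by them, depend on this length. Of 27945 genes, 12844 passed the filter on low counts and were tested, 8 of the 9 among them. Replicates differed by more than counting error in every group, with a chi-square per degree of freedom of 1.71 in control, 1.71 in shControl cells, 7.26 with shMETTL3 and 3.36 with shMETTL14. Nascent METTL3 went from 71.7 ± 27.4 normalised counts (mean ± SD, n = 2) in shControl cells to 17.2 ± 1.15 in shMETTL3 cells (log2 fold change -2.04, edgeR adjusted p = 1.79e-05). METTL14 was at 29.8 ± 1.97 with shControl and 16.4 ± 2.30 with shMETTL14, which did not pass the test (log2 fold change -0.86, edgeR adjusted p = 0.0763), although the libraries did not overlap. METTL14 was already lower in shControl than in control cells, which had 50.5 ± 3.70 (log2 fold change -0.76, edgeR adjusted p = 0.0472), and it was at 43.8 ± 2.48 with shMETTL3. These counts report transcription, not mature mRNA or protein, and the paper refers to a western blot for both knockdowns. The counts did not separate the strands in practice: in 313 of 315 pairs of nested genes on opposite strands the outer gene was at or above the inner one in every library. None of the 8 genes tested shares more than 0.379% of its length with another gene, the most being 128 bases that SLC2A1 shares with SLC2A1-AS1.

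The fibroblast identity was read from 12 markers, of which 11 had more than 3 counts in every library, the exception being S100A4. Their summed normalised counts were 36942 to 39721 in control, 30148 to 31306 in shControl cells, 28906 to 34589 with shMETTL3 and 18187 to 21141 with shMETTL14. In senescence single markers went both ways. Both shControl libraries were below both control libraries for 8 of the 12 and above them for 4 (COL6A1, COL6A2, VIM and FN1). Set against both shControl libraries, both shMETTL3 libraries were above for 4 and below for 4. Both shMETTL14 libraries were above for 0 and below for 10. The share of all genes whose libraries lie apart like this was not computed. The 13.3% of all genes tested that edgeR called in each direction in senescence is a stricter measure. COL1A1 was at 8631 and 7604 normalised counts in control, 2481 and 3294 in shControl cells, 3897 and 2822 with shMETTL3 and 1762 and 2155 with shMETTL14, and FN1 at 9417 and 8826, 10907 and 10750, 16598 and 14506, and 6513 and 8211. Of 5 leukocyte markers CD3E and MS4A1 were at 0 throughout, and the list summed to 15.1 to 17.4 in control, 53.4 to 74.5 in shControl cells, 25.6 to 47.2 with shMETTL3 and 47.4 to 51.0 with shMETTL14. CD68, a lysosomal protein of macrophages, gave most of these, with 17 and 16 raw counts in control, 60 and 45 in shControl cells, 42 and 26 with shMETTL3 and 49 and 42 with shMETTL14. Of 6 epithelial markers KRT5 was at 0 in every library, and the list summed to 47.8 to 50.5 in control, 28.9 to 54.4 in shControl cells, 21.8 to 23.6 with shMETTL3 and 61.1 to 77.0 with shMETTL14. The 4 endothelial markers summed to 2.998 to 8.86. The part of these differences, those in fibroblast markers included, in the results below was not tested. In bulk libraries fewer cells of a type and less nascent RNA per cell cannot be told apart.

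Promoter sequence from RefSeq was at hand for 7 of the 9 genes, in 15 windows that run from 250 bases before to 50 bases after a start (GRCh38.p14, whereas the counts are on hg19). Both strands were searched for 6 motifs. The hypoxia response core ACGTG occurred in 3 of the 15 windows, all of HK2 or PFKFB3, and in 21.4% of 35116 windows of all genes. Its palindromic extension CACGTG, the E-box bound by MYC and related factors, holds the core on each strand and occurred in 2 of the 15 windows and in 7.26% of all. The 250 bases before both HK2 starts and before the downstream PFKFB3 start are shown because they are the windows that hold the core, with each match in capitals.
HK2, upstream start, chr2:74833877-74834126, plus strand: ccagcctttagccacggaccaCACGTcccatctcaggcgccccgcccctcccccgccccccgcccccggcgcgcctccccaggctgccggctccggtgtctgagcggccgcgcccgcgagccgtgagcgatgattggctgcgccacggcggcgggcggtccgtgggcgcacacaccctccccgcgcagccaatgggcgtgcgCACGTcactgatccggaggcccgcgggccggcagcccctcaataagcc
HK2, downstream start, chr2:74834920-74835169, plus strand: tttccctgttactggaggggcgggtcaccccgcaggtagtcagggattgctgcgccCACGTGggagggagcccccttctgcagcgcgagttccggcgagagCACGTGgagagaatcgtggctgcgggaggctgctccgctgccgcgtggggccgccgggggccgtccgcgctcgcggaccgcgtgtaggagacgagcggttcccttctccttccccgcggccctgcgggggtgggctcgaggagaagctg
PFKFB3, downstream start, chr10:6202682-6202931, plus strand: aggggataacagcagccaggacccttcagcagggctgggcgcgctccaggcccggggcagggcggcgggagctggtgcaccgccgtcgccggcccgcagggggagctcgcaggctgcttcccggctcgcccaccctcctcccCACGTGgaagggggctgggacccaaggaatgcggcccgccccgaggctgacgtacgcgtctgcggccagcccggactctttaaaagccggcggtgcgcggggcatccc
The upstream HK2 window holds the core in 2 places, both on the minus strand and starting at positions -229 and -48 from the start, and the downstream one holds 2 E-boxes, starting at -194 and -149. The PFKFB3 window holds 1 E-box, starting at -108. GC boxes (GGGCGG) occurred in 9 of the 15 windows against 44.95% of all, the AP-1 motif TGANTCA in 3 against 7.71%, the NF-kappaB motif in 4 against 11.3%, and the CRE in 0 against 1.85%. A match describes these letters and is not evidence of binding.

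The first question was which of these genes changed with senescence. Of the 8 tested, HK2, HK1 and SLC2A3 rose and SLC2A1 fell in senescent shControl cells against control cells, and the other 4 did not pass the test. Over all genes tested, 13.3% were called higher and 13.3% lower. The median log2 fold change was 0.08 over the 8 and -0.03 over all genes tested. Each change is read against the rest of its library: scaled by total count alone, the median of all genes shifted by -0.49, HK2 (2.95) and SLC2A1 (-1.32) kept their calls, and HK1 (0.16) and SLC2A3 (0.14) did not.

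**Figure D1:**
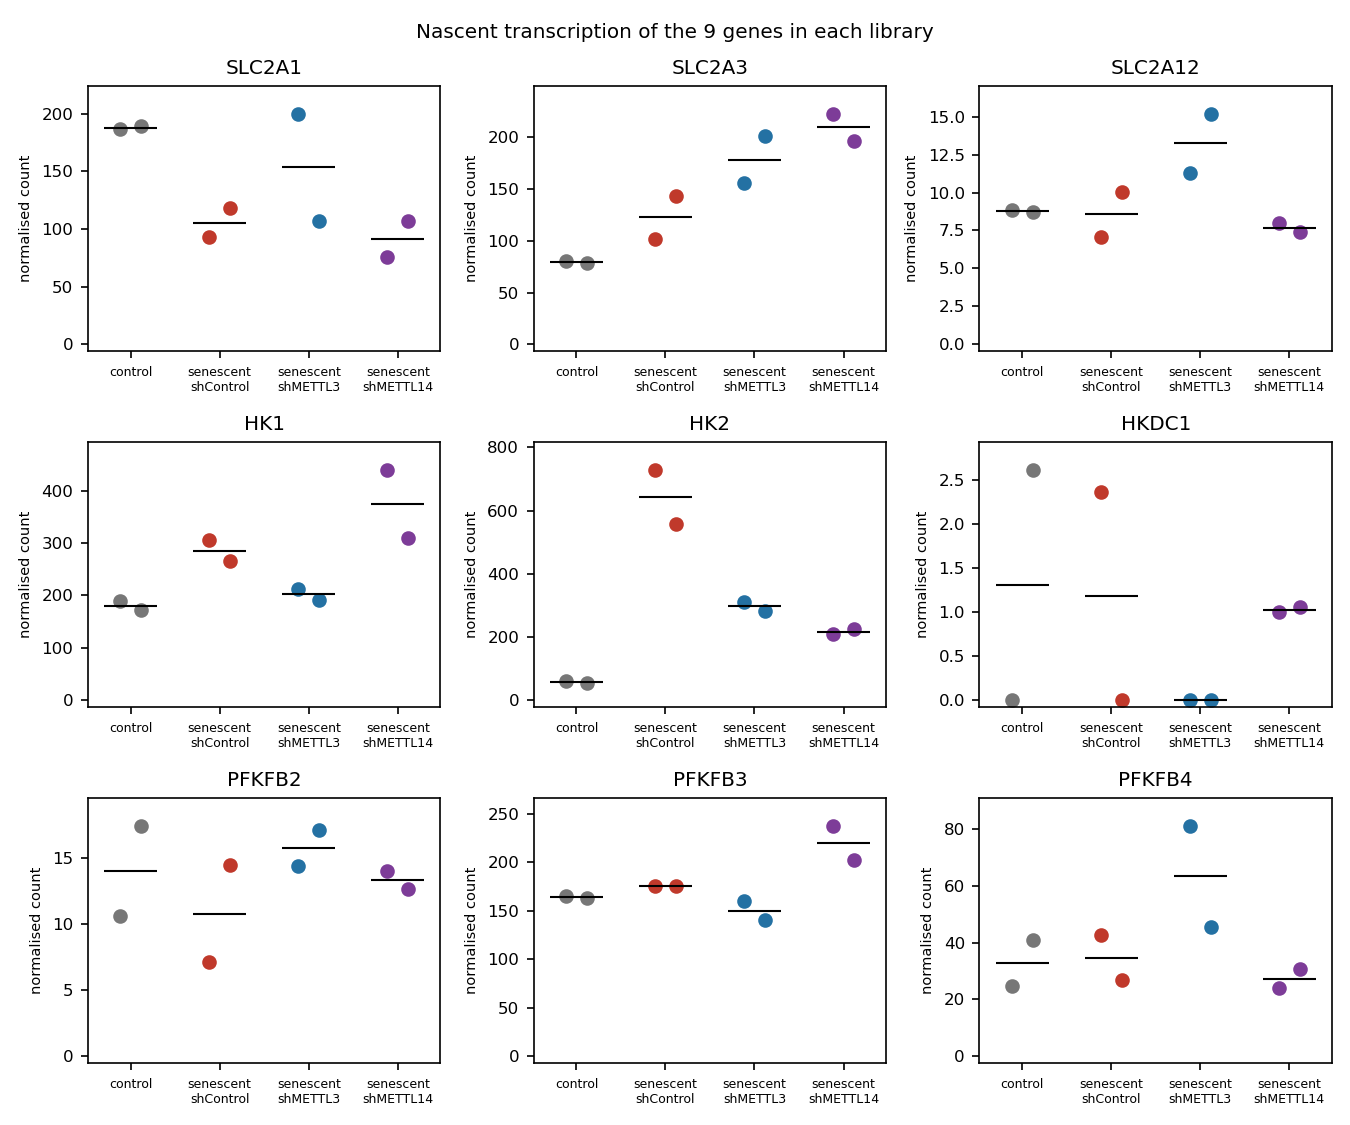
Normalised count (vertical axes, each from 0) of each of the 9 genes in every library (points) with the group mean (line). HK2 rises from 54.0 to 62.9 in control to 556 to 729 in senescent shControl cells and lies between these ranges in both knockdowns.

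SLC2A1 encodes GLUT1, the transporter of basal glucose uptake in many cells, and lies at chr1:43391046-43424847 on the minus strand (hg19). Its normalised counts were 187 and 189 in control, 93.4 and 118 in shControl cells, 200 and 107 with shMETTL3, and 76.0 and 107 with shMETTL14. Both shControl libraries lay below both control libraries, and the shMETTL3 libraries were far apart. SLC2A1 fell by 0.83 on the log2 scale in senescence (SE 0.22, edgeR adjusted p = 0.00536), a call that was lost without shControl replicate 1 (-0.66, edgeR adjusted p = 0.132).

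SLC2A3 encodes GLUT3, a transporter with high affinity for glucose that is best known from neurons, and lies at chr12:8071824-8088892 on the minus strand. It gave 80.6 and 78.4 normalised counts in control, 102 and 144 in shControl cells, 156 and 201 with shMETTL3, and 223 and 197 with shMETTL14. Both control libraries were the lowest of the 8 and every knockdown library was above both shControl libraries. SLC2A3 rose by 0.63 on the log2 scale in senescence (SE 0.20, edgeR adjusted p = 0.0181). The call was lost with DESeq2 (adjusted p = 0.0777) and without shControl replicate 2 (0.37, edgeR adjusted p = 0.348) or either control library (edgeR adjusted p = 0.0798 and 0.0975). SLC2A14, a near-identical copy, had at most 6 counts in any library, and how reads that match both were assigned is not given in the sources used here.

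SLC2A12 encodes GLUT12, an insulin-responsive transporter, and spans chr6:134308719-134373789 on the minus strand. It was barely transcribed, with 6 to 16 raw counts per library, and passed the test in none of the comparisons. In senescence its log2 fold change was -0.03, with a 95% interval from -1.20 to 1.14, so a change of 1 in either direction was not excluded.

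The order of SLC2A1 and SLC2A3 per kb differed between control and senescent libraries, a difference that was not tested. SLC2A3 stood to SLC2A1, per kb, as 0.854 and 0.821 in control and as 2.16 and 2.41 with shControl. It was 1.54 and 3.72 with shMETTL3 and 5.81 and 3.63 with shMETTL14, so that SLC2A3 was the higher of the pair in every senescent library and the lower in both control libraries. The sum of the 3 transporters per kb was 10.4 ± 0.0491 in control and 10.4 ± 2.28 in shControl cells, against 15.2 ± 0.0205 with shMETTL3 and 15.1 ± 0.425 with shMETTL14 (mean ± SD, n = 2).

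HK2 lies at chr2:75059782-75120481 on the plus strand, with no other counted gene over it. Its raw counts were 71 and 62 in control, 617 and 500 in shControl cells, 304 and 299 with shMETTL3, and 209 and 214 with shMETTL14. After scaling these were 62.9 and 54.0, then 729 and 556, then 312 and 284, then 209 and 225 normalised counts. The 4 groups did not overlap. HK2 rose by 3.46 on the log2 scale in senescence (SE 0.18, 95% interval 3.09 to 3.82, edgeR adjusted p = 5.8e-15), or 10.98-fold. Its level per kb moved from the 32.3 percentile of tested genes in control to the 91.1 percentile with shControl. HK2 was among the genes the study picked on these libraries, so its calls are not independent evidence.

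HK1, at chr10:71038252-71161637 on the plus strand, gave 190 and 172 normalised counts in control, 305 and 266 in shControl cells, 212 and 192 with shMETTL3, and 440 and 310 with shMETTL14. Its senescent libraries were all above both control libraries, those with shMETTL3 only just. HK1 rose by 0.66 in senescence (SE 0.16, edgeR adjusted p = 0.00277), a change that was 0.57 and lost its call without shControl replicate 1 (edgeR adjusted p = 0.0725). HKDC1, the hexokinase domain-containing gene that lies 10937 bases below HK1 at chr10:70980059-71027315, was not tested: its raw counts were 0 and 3 in control, 2 and 0 in shControl cells, 0 and 0 with shMETTL3, and 1 and 1 with shMETTL14, at or under the 3 counts that a count of 0 allows.

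HK2 took most of hexokinase transcription in senescent shControl cells. Per kb, it made up 40.3% and 38.1% of the sum of HK1, HK2 and HKDC1 in control, 82.7% and 81.0% in shControl cells, 74.9% and 75.1% with shMETTL3, and 49.0% and 59.5% with shMETTL14. Of the raw counts on these 3 genes, 24.9% (95% Wilson interval 20.2 to 30.2, of 285 counts) fell on HK2 in control replicate 1 and 70.4% (67.2 to 73.3, of 877 counts) in shControl replicate 1. These intervals cover counting error only. The sum of the 3 hexokinases per kb was 2.45 ± 0.167 in control, 12.9 ± 2.27 in shControl cells, 6.55 ± 0.444 with shMETTL3 and 6.64 ± 0.553 with shMETTL14 (mean ± SD, n = 2), so the summed level in both knockdowns lay between those of control and shControl cells.

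**Figure D2:**
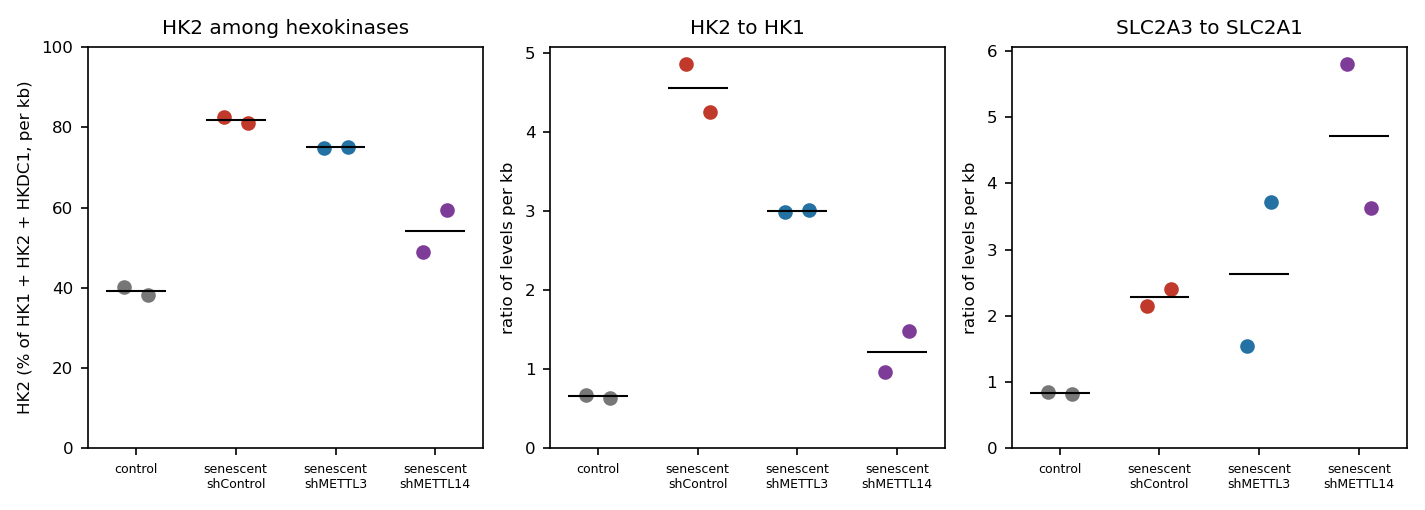
HK2 as a percentage of hexokinase transcription per kb (left), the ratio of HK2 to HK1 per kb (middle) and of SLC2A3 to SLC2A1 per kb (right) in each library (points) with the group mean (line). The HK2 to HK1 ratio is 0.640 to 0.674 in control, 4.25 to 4.86 in shControl cells, 2.99 to 3.01 with shMETTL3 and 0.966 to 1.48 with shMETTL14.

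None of the 3 PFKFB genes was called in senescence by edgeR or DESeq2, nor did any have an unadjusted p under 0.05. PFKFB3, whose product mainly makes the activating bisphosphate, lies at chr10:6186841-6277507 on the plus strand. Its normalised counts were 166 and 163 in control, 176 and 176 in shControl cells, 160 and 141 with shMETTL3, and 238 and 202 with shMETTL14. In senescence the log2 fold change was 0.10, with a 95% interval from -0.22 to 0.42 whose upper end lies far below the change of HK2. PFKFB4, at chr3:48555117-48598613 on the minus strand, gave 24.8 and 40.9 in control, 42.6 and 26.7 in shControl cells, 81.1 and 45.6 with shMETTL3, and 23.99 and 30.5 with shMETTL14. Its control and shControl libraries overlapped (log2 fold change 0.07, 95% interval -0.64 to 0.78). PFKFB2, best known from heart, lies at chr1:207226620-207254368 on the plus strand and had 6 to 20 raw counts per library. It passed no test, and in senescence its log2 fold change was -0.37 with a 95% interval from -1.41 to 0.67.

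The order of the genes by level per kb was different in each group. In control cells SLC2A1 (5.53 and 5.59) stood first, followed by SLC2A3 (4.72 and 4.59), PFKFB3 (1.83 and 1.80), HK1 (1.54 and 1.39) and HK2 (1.04 and 0.889), with PFKFB4 overlapping HK2 and PFKFB2 overlapping PFKFB4. With shControl HK2 stood first (12.02 and 9.17), followed by SLC2A3 (5.96 and 8.41), SLC2A1 (2.76 and 3.49), HK1 (2.47 and 2.16) and PFKFB3 (1.94 and 1.94), and no neighbours overlapped. With shMETTL3 SLC2A3 stood first (9.14 and 11.8), HK2 (5.14 and 4.68) overlapped SLC2A1 (5.92 and 3.17), and PFKFB3, HK1 and PFKFB4 overlapped each other. With shMETTL14 SLC2A3 stood first again (13.1 and 11.5), HK2 (3.44 and 3.71) overlapped HK1 (3.56 and 2.51), and HK1 overlapped SLC2A1 (2.25 and 3.18) and PFKFB3 (2.62 and 2.23). SLC2A12 was the lowest of the 8 in every group.

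**Figure D3:**
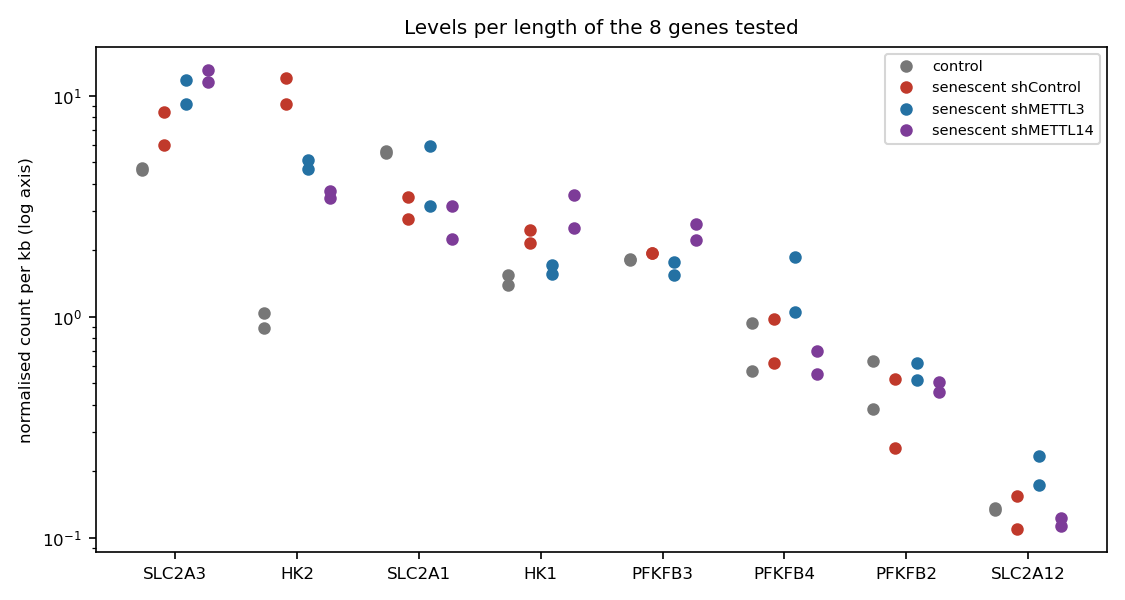
Normalised count per kb (log axis) of the 8 genes tested in each library (points, coloured by group), ordered by their mean. HK2 spans the widest range of the 8, from 0.889 in control to 12.02 with shControl, while PFKFB3 stays between 1.55 and 2.62.

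The next question was how knockdown of METTL3 in senescent cells changed these genes. Against shControl, shMETTL3 lowered HK2 and HK1 and raised SLC2A3, and the other 5 tested did not pass. Over all genes tested, 12.2% were called higher and 11.2% lower, and the median log2 fold change was 0.53 over the 8 and -0.03 over all. HK2 fell by 1.11 on the log2 scale (SE 0.14, edgeR adjusted p = 2.08e-06), with both shMETTL3 libraries below both shControl libraries. Scaled by total count alone HK2 was at -0.49 (edgeR adjusted p = 0.0198). HK1 fell by 0.50 (SE 0.16, edgeR adjusted p = 0.026), and its direction turned to 0.12 when libraries were scaled by total count alone, where the median of all genes itself shifted by 0.61. SLC2A3 rose by 0.54 (SE 0.18, edgeR adjusted p = 0.0318). DESeq2 did not call HK1 (adjusted p = 0.126) or SLC2A3 (adjusted p = 0.12). Leaving out shControl replicate 1 or shMETTL3 replicate 2 ended both calls, and leaving out shControl replicate 2 ended that of HK1 (edgeR adjusted p = 0.0591), with the log2 fold change of SLC2A3 then at 0.31 or 0.32 in the first 2 of these fits.

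PFKFB4 had a log2 fold change of 0.87 with shMETTL3 (SE 0.32, edgeR adjusted p = 0.0507) and SLC2A1 one of 0.53 (SE 0.23, edgeR adjusted p = 0.0909). Without shMETTL3 replicate 2 they were 1.21 and 0.90 and passed the test (edgeR adjusted p = 0.00474 and 0.000936), and without shMETTL3 replicate 1 they were 0.39 and 0.0028. PFKFB3, PFKFB2 and SLC2A12 gave log2 fold changes of -0.23, 0.53 and 0.62 that did not pass.

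Knockdown of METTL14 was compared with the same shControl libraries, so the comparisons share them and are given side by side. Against shControl, shMETTL14 lowered HK2 and raised SLC2A3, and the other 6 tested did not pass. Over all genes tested, 9.15% were called higher and 12% lower. The median log2 fold change was 0.07 over the 8 and 0.00 over all. HK2 fell by 1.57 (SE 0.15, edgeR adjusted p = 1.18e-08), again with no overlap of libraries. SLC2A3 rose by 0.77 (SE 0.18, edgeR adjusted p = 0.00263), a call lost without shControl replicate 1 (0.55, edgeR adjusted p = 0.113) or shMETTL14 replicate 1 (0.66, edgeR adjusted p = 0.0636).

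HK1 was at 0.39 (SE 0.15, edgeR adjusted p = 0.0683) and PFKFB3 at 0.32 (SE 0.15, edgeR adjusted p = 0.141), each with both shMETTL14 libraries above both shControl libraries. Without shMETTL14 replicate 2 HK1 was at 0.62 and passed (edgeR adjusted p = 0.00968). SLC2A1 (-0.21), PFKFB4 (-0.34), PFKFB2 (0.29) and SLC2A12 (-0.16) overlapped shControl.

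**Figure D4:**
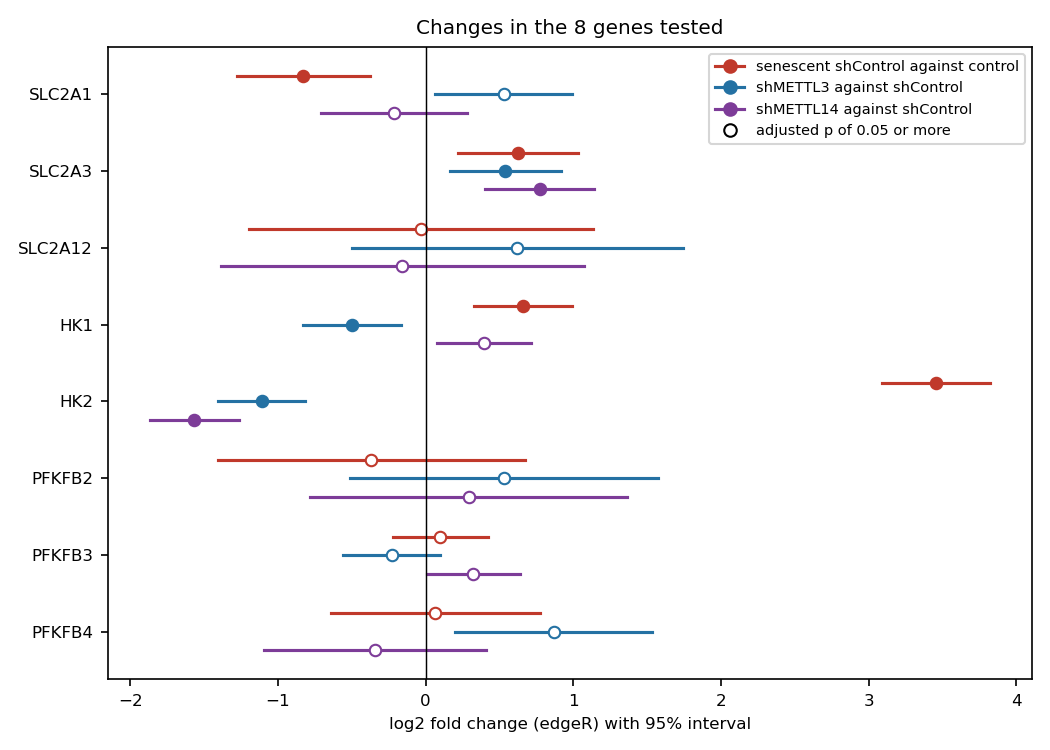
Log2 fold change (horizontal axis, edgeR, lines show the 95% interval) of the 8 genes tested in senescent shControl against control cells and in each knockdown against shControl, with open points for an adjusted p of 0.05 or more. HK2 is at 3.46 in senescence and at -1.11 and -1.57 in the knockdowns, and SLC2A3 is above 0 in all 3.

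The knockdown groups were also set against each other and against control cells. In shMETTL14 against shMETTL3, HK1 (0.89) and PFKFB3 (0.55) were called higher and SLC2A1 (-0.74), HK2 (-0.46) and PFKFB4 (-1.21) lower, where 16.5% of all genes tested were called higher and 18.7% lower. The median log2 fold change was -0.35 over the 8 and 0.01 over all. Against control, cells with shMETTL3 were higher in HK2 (2.35), SLC2A3 (1.17) and PFKFB4 (0.93), with 20.1% of all genes called higher and 20.1% lower, and 0 of the 8 were called lower by edgeR, 0 by DESeq2 and 0 at an unadjusted p under 0.05. Without shMETTL3 replicate 1, SLC2A1 was at -0.81 and called lower (edgeR adjusted p = 0.00099). The PFKFB4 call was lost without shMETTL3 replicate 1 (0.46, edgeR adjusted p = 0.256), without control replicate 1 (0.62, edgeR adjusted p = 0.22) and with DESeq2 (adjusted p = 0.0741). Against control, cells with shMETTL14 were higher in HK2 (1.89), SLC2A3 (1.401), HK1 (1.05) and PFKFB3 (0.42) and lower in SLC2A1 (-1.04), with 19.7% of all genes called higher and 20.5% lower. The PFKFB3 call was lost with DESeq2 (adjusted p = 0.115), and without either control library (edgeR adjusted p = 0.105 and 0.129) or shMETTL14 replicate 1 (edgeR adjusted p = 0.246).

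Of the difference in mean normalised counts of HK2 between control and shControl cells, 41.0% remained over control with shMETTL3 and 27.1% with shMETTL14. Both shares use the same control and shControl libraries and were not tested.

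The other genes of the pathway were taken in 4 lists. Of 13 other transporters of the SLC2A and SLC5A families 6 were tested, and in senescence SLC2A6 (0.95), SLC2A10 (0.75) and SLC2A13 (0.89), the last known as a myo-inositol transporter, rose on the log2 scale, where 13.3% of all genes tested were called higher and 13.3% lower, while 0 fell by edgeR, by DESeq2 or at an unadjusted p under 0.05. DESeq2 called 1 gene of the list higher (1231 of all 12844), and scaling by total count alone 0 (752 of all). With shMETTL3 SLC2A13 rose (0.41) and SLC2A10 fell (-0.88), and with shMETTL14 SLC2A10 fell (-1.08, from 120 ± 2.97 to 56.9 ± 1.38 normalised counts). Of 8 other glucose kinases and glucose-6-phosphate enzymes only ADPGK and G6PC3 were tested, and 0 were called by edgeR, by DESeq2 or at an unadjusted p under 0.05 in these comparisons. Of 8 genes of the fructose-6-phosphate step 5 were tested: GPI, the isomerase between the hexokinase and phosphofructokinase steps, rose in senescence (0.69) and fell with shMETTL3 (-0.81), where TIGAR, a phosphatase that lowers the activating bisphosphate, rose (0.72), and PFKL, the liver form of phosphofructokinase, fell with shMETTL14 (-0.69, edgeR adjusted p = 0.0438), a call that DESeq2 did not make. With shMETTL3 PFKL was at -0.64 (edgeR adjusted p = 0.0546), PFKM at -0.53 and PFKP at -0.40, none passing the test. Against control, the transporter gene SLC5A2 was lower with shMETTL3 (-1.57) and with shMETTL14 (-1.89), at 4 to 24 raw counts per library. In each of these comparisons 2 of the 6 transporters tested were called higher and 1 lower. Of all genes tested, 19.7% to 20.5% were called in each direction.

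Of 9 regulators of glucose uptake and of these genes 8 were tested. In senescence ARRDC4 (2.08), TXNIP (1.51), HIF1A (1.45) and MYC (0.99) rose and EPAS1 fell (-1.46), so that 4 of the 8 were called higher and 1 lower, against 13.3% of all genes tested in each direction. ARRDC4 and TXNIP are arrestins known to draw glucose transporters off the cell surface, HIF1A and EPAS1 encode the oxygen-sensitive subunits of hypoxia-inducible factors, and MYC is a transcription factor known to act on glycolytic genes. HIF1A was at 523 and 587 normalised counts in control, 1535 and 1502 in shControl cells, 1630 and 2080 with shMETTL3 and 1094 and 1123 with shMETTL14. With shMETTL3 0 of the 8 were called by edgeR (12.2% of all genes higher, 11.2% lower) and 0 by DESeq2, 3 were called higher with scaling by total count alone, which called 5285 of all 12844 genes higher, and 2 had an unadjusted p under 0.05, the log2 fold changes lying between -0.50 (ARRDC4) and 0.29 (HIF1A), whereas with shMETTL14 TXNIP (1.15) and MYC (0.83) rose and HIF1A fell (-0.45), with 9.15% of all genes called higher and 12% lower. TXNIP went from 194 ± 30.2 with shControl to 428 ± 60.3 with shMETTL14 and was at 154 ± 3.58 with shMETTL3 (mean ± SD, n = 2).

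**Figure D5:**
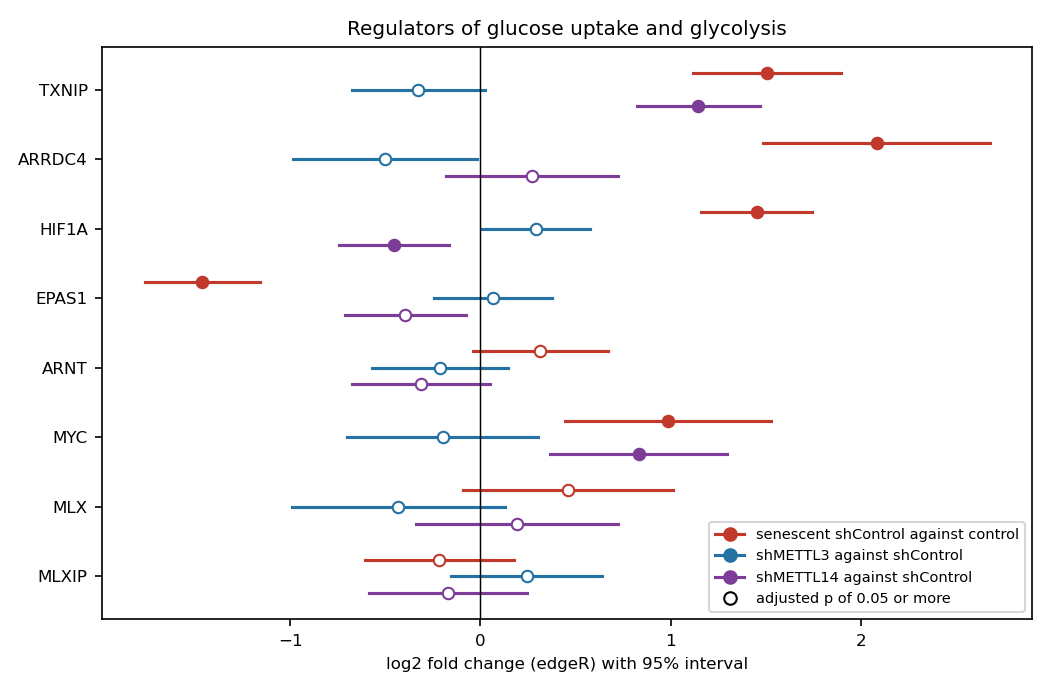
Log2 fold change (horizontal axis, edgeR, lines show the 95% interval) of the 8 regulators tested, in the same 3 comparisons, with open points for an adjusted p of 0.05 or more. TXNIP is at 1.51 in senescence, -0.33 with shMETTL3 and 1.15 with shMETTL14.

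The genes most like HK2 over the 8 libraries, by Pearson correlation of depth-scaled log2 counts among 3882 genes, were VEGFA (0.996), CDCP1 (0.993), ENC1 (0.991), C2CD2 (0.990) and SLC20A1 (0.988), and 122 genes exceeded 0.9. The 8 points share their groups, so the values describe a shared pattern over 4 groups. VEGFA, an angiogenic growth factor, was at 66.8 in control, 317 in shControl cells, 174 with shMETTL3 and 154 with shMETTL14 (mean normalised counts), and SLC20A1, a phosphate transporter, at 280, 2301, 1500 and 941. Among the other members tested, the correlation with HK2 was highest for HK1 at 0.49, with SLC2A3 at 0.46 and SLC2A1 the lowest at -0.56. The genes named above were picked as the most like HK2 of 3882, so lower values in the members follow from that choice. The typical correlation with HK2 over all 3882 genes is not given, so whether the members are less like HK2 than other genes was not tested.

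Neither tested neighbour of HK2 was called in senescence or in a knockdown against shControl. SEMA4F, 148801 bases below, had log2 fold changes of 0.05 in senescence, -0.15 with shMETTL3 and -1.65 with shMETTL14, and LINC01291, 15777 bases above, of -0.39, -1.40 and 0.28, none of them called (edgeR adjusted p between 0.0569 and 0.96). Both had few counts, 3 to 18 per library. Against control, LINC01291 was called lower with shMETTL3 (-1.79, edgeR adjusted p = 0.034) and SEMA4F with shMETTL14 (-1.61, edgeR adjusted p = 0.0338). YOD1, which starts 295 bases from PFKFB2 on the other strand, rose with shMETTL14 (1.86, edgeR adjusted p = 5.72e-06), where PFKFB2 was at 0.29 and did not pass. CD163L1, the tested neighbour below SLC2A3 at 475043 bases, rose in senescence (2.52) and with shMETTL3 (1.54).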

How the data were processed

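fastGRO-seq libraries of IMR90 ER:RAS cells were analysed from the raw counts per gene that the authors deposited. Per the file headers, the authors counted reads over hg19 gene bodies with HOMER, one row per gene, and the submitters' processing notes name STAR and deepTools 3.3. Values of the authors' Drosophila spike-in were not used, and a shift common to the whole transcriptome is therefore invisible here.

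All 8 libraries entered a single edgeR 4.0.16 quasi-likelihood fit (R 4.3.3, TMM, filterByExpr with a minimum count of 10, 12844 genes), with Benjamini-Hochberg adjustment over all genes tested and a call at an adjusted p below 0.05. The fit gave a biological coefficient of variation of 10.6%. Every row had a gene name. Normalised counts are counts scaled to the mean effective library size. With 2 against 2 libraries a permutation test cannot go below 0.333, so none was used. Alternatives were DESeq2 1.42.0, library size alone, upper quartile scaling, removal of ribosomal RNA rows, other filters, fits of the compared groups, a replicate block and leaving out each library. The fit was tested on simulated data. The labels do not say whether libraries with the same replicate number share a batch. Plots were drawn with matplotlib 3.10.9.

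The members, lists and tests were chosen with earlier results of these data known. Named were the 9 members, METTL3 and METTL14, genes of the lists called and changed by 1 or more on the log2 scale, the 5 genes most like HK2, overlapping genes and tested neighbours. Other list genes given with values were chosen after their values were seen.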

Additional observations from a re-analysis of the deposited data

Results flagged for a closer look

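The response of 5 of the 8 genes tested differed between the knockdowns, by the contrast of shMETTL14 with shMETTL3 cells in the edgeR fit, which called 16.5% of all genes tested higher and 18.7% lower. HK1 was higher with shMETTL14 by 0.89 on the log2 scale (SE 0.16, edgeR adjusted p = 7.02e-05), and this call held under all 12 alternatives, with values from 0.60 to 1.13. PFKFB3 was higher by 0.55 (SE 0.15, edgeR adjusted p = 0.00627), a call lost with DESeq2, with scaling by total count alone and without shMETTL14 replicate 1 (0.41). PFKFB4 had a log2 difference of -1.21 (SE 0.33, edgeR adjusted p = 0.0051), which was -0.73 and lost its call without shMETTL3 replicate 1. SLC2A1 had one of -0.74 (SE 0.23, edgeR adjusted p = 0.0121), although the libraries of both groups overlapped, and it was -0.22 without shMETTL3 replicate 1 (edgeR adjusted p = 0.437). HK2 had one of -0.46 (SE 0.15, edgeR adjusted p = 0.0214), which was lost with DESeq2 (adjusted p = 0.071), in a fit of only the groups compared (edgeR adjusted p = 0.0539), without shMETTL3 replicate 1 (-0.37, edgeR adjusted p = 0.0715) and without shMETTL14 replicate 1 (-0.42, edgeR adjusted p = 0.125). The shMETTL3 libraries differed most between themselves, and the summed fibroblast markers were lower with shMETTL14; the part of either in these differences was not tested.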

How the results depend on the processing

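HK2 kept its direction and its call under all 12 alternatives in senescence (2.95 to 3.65), with shMETTL3 (-1.30 to -0.49) and with shMETTL14 (-1.75 to -1.21). The calls of HK1 between the knockdowns, of HK2 and SLC2A3 against control in both knockdowns, and of HK1 and SLC2A1 against control with shMETTL14 also held under all 12. SLC2A1 in senescence was lost only without shControl replicate 1, and each remaining call was lost under at least 1 alternative. The cause was not tested.

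Scaling by total count alone shifted the median of all genes by -0.49 in senescence, 0.61 with shMETTL3 and 0.35 with shMETTL14. It left 1 gene higher in senescence, and gave 3 higher and 1 lower with shMETTL3, 3 higher with shMETTL14 and 1 higher in shMETTL14 against shMETTL3. With that scaling 752, then 5285 and 353, then 3163, then 1177 of all 12844 genes were called in those directions. It turned PFKFB3 (-0.40) and PFKFB4 (-0.43) in senescence, HK1 (0.12) and PFKFB3 (0.38) with shMETTL3, SLC2A1 (0.13), SLC2A12 (0.19) and PFKFB4 (0.011) with shMETTL14, and SLC2A3 (-0.038) between the knockdowns. DESeq2 gave 0 higher and 1 lower with shMETTL3, and 1 higher in shMETTL14 against shMETTL3. With shMETTL3, 2 were higher without ribosomal RNA rows, 3 with no filter and 0 in a fit of only the groups compared, a fit that gave 2 higher with shMETTL14, 1 lower between the knockdowns, and SLC2A12 at 0.010 in senescence.

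With each library left out in turn, the count lower in senescence was 0 to 1, higher with shMETTL3 0 to 2, lower with shMETTL3 1 to 2, higher with shMETTL14 0 to 2, higher between the knockdowns 1 to 2, lower between them 0 to 3, and lower in shMETTL3 against control 0 to 1. Log2 fold changes that turned were, in senescence, PFKFB2 (-0.96 to 0.052), PFKFB4 (-0.29 to 0.48) and SLC2A12 (-0.29 to 0.20); with shMETTL14, PFKFB2 (-0.12 to 0.89), PFKFB4 (-0.65 to 0.026) and SLC2A12 (-0.38 to 0.11); against control, PFKFB2 (-0.38 to 0.33) and PFKFB4 (-0.59 to 0.14) with shMETTL14 and PFKFB2 (-0.15 to 0.56) and SLC2A1 (-0.81 to 0.084) with shMETTL3. None of these was called in the fit to all libraries.

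The replicate numbers are shared between groups, and the correlations of same-numbered deviations ran from -0.04 to 0.10. With 2 libraries per group these values cannot exclude that same-numbered libraries were handled together, and the main fit used no pairs. With the replicate block, 2 genes in place of 1 were higher with shMETTL14, HK1 passing at 0.38 (edgeR adjusted p = 0.0456), and it changed no other call of a member.

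Without division by length HK2 held 24.3% of hexokinase counts in control, 69.0% with shControl, 59.6% with shMETTL3 and 37.1% with shMETTL14. Depth limits SLC2A12, PFKFB2 and HKDC1, which had at most 20 counts in any library.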

Other observations

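Likeness among the members was highest for HK1 and PFKFB3 (Pearson correlation 0.89 of depth-scaled log2 counts over the 8 libraries) and lowest for HK1 and SLC2A1 (-0.82). The 8 points share their 4 groups, and genes with few counts add noise to these values. PFKFB3 was highest in both shMETTL14 libraries, and the genes most like it, chosen after their values were seen, were RPL13 (0.98), RPL27A (0.98) and GAPDH (0.98).

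Beside the comparisons with shControl, 5 of the 8 regulators tested were called by edgeR between the knockdowns: TXNIP (1.47), MYC (1.03) and ARRDC4 (0.78) were higher and HIF1A (-0.74) and EPAS1 (-0.46) lower with shMETTL14 than with shMETTL3, where 16.5% of all genes tested were called higher and 18.7% lower. ARNT, MLX and MLXIP did not pass (edgeR adjusted p = 0.682, 0.0649 and 0.097). MYC gave 111 and 103 normalised counts with shMETTL14, against 34.5 and 26.1 in control, 57.9 and 62.3 in shControl cells and 62.6 and 42.7 in shMETTL3 cells, so that both shMETTL14 libraries were above the other 6.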
